A study of Arabidopsis thaliana with 18 samples.

Results

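A total of 158 probe sets rose in phosphate-starved Arabidopsis thaliana roots and did not rise to a comparable extent in the shoots of starved plants. They were chosen by their measured values among 22810 probe sets of the Affymetrix ATH1 array, on which each probe set is a group of short probes for a transcript. A member had a mean log2 value in starved roots that was at least 1 above that in mock roots, its lowest starved root array lay above its highest mock root array, and its starved shoot mean was less than 0.5 above its mock shoot mean. Control probe sets, OCT1 and genes whose symbols begin with CYP, UGT, scpl, WRKY, MYB or NAC were left out. Of 170 probe sets that met the thresholds, 12 were removed by symbol. Probe sets with several genes or without a name could not be screened in this way. Genes known here by a locus number alone passed the screen, so members of these families may remain. The members are therefore defined by the starved and mock arrays, and their differences between those arrays are descriptions that carry no test.

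All plants were wild type of the Col-0 ecotype, raised in hydroponic culture for 20 days in complete MGRL medium. Starved plants then spent 10 days in medium in which MES buffer took the place of sodium phosphate, and mock plants spent the same 10 days in complete medium. Replete plants were starved for 10 days and given complete medium for 3 days more. Roots and shoots were collected separately, giving 6 groups of 3 arrays that the labels call biological replicates. Replete plants were 33 days old and the starved and mock plants 30 days old, so age and recovery cannot be told apart.

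Phosphate is taken up by roots through transporters of the PHT1 family and is loaded into the xylem for the shoot. In phosphate-poor medium, plants are known to make more uptake transporters, to secrete acid phosphatases that release phosphate from organic esters, to replace membrane phospholipids by galactolipids, and to form more and longer root hairs. Much of this programme is driven by the transcription factor PHR1 and its relatives, and systemic signals from the shoot modify it.

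The array medians lay between 5.88 and 5.98 over all probe sets, and deposited values spanned 1.33 to 13.45. The organ labels matched their markers. The 3 green tissue markers measured, RCA, LHCB4.1 and PRK, averaged 5.30 to 5.55 per array in replete roots, 4.82 to 5.24 in starved roots and 4.81 to 5.5 in mock roots, against 12.3 to 12.62 over all shoot arrays. The 3 root markers, PYK10, EXPA7 and EXPA18, averaged 9.05 to 10.04 per array in roots and 4.80 to 5.27 in shoots. Detection calls were not examined here, so the low values of some members in an organ may lie at background, where differences can be understated. The samples were whole organs, in which fewer cells of a type and less RNA per cell cannot be told apart.

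Of the 158 members, 136 had 1 gene, which gave 135 different genes because PGSIP3 had 2 probe sets. A further 8 matched several genes and 14 had no name here. Root differences between starved and mock plants ranged from 1.0 to 4.16 with a median of 1.29, that is from 2.0-fold to 17.9-fold with a median of 2.45-fold. A difference of 2 or more was seen in 22 members and one under 1.5 in 105. Shoot differences had a median of 0.09 and lay between -0.91 and 0.49. Of the members, 114 differed by at most 0.25 in shoots in either direction, and 58 had a lower mean in starved than in mock shoots.

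**Figure D1:**
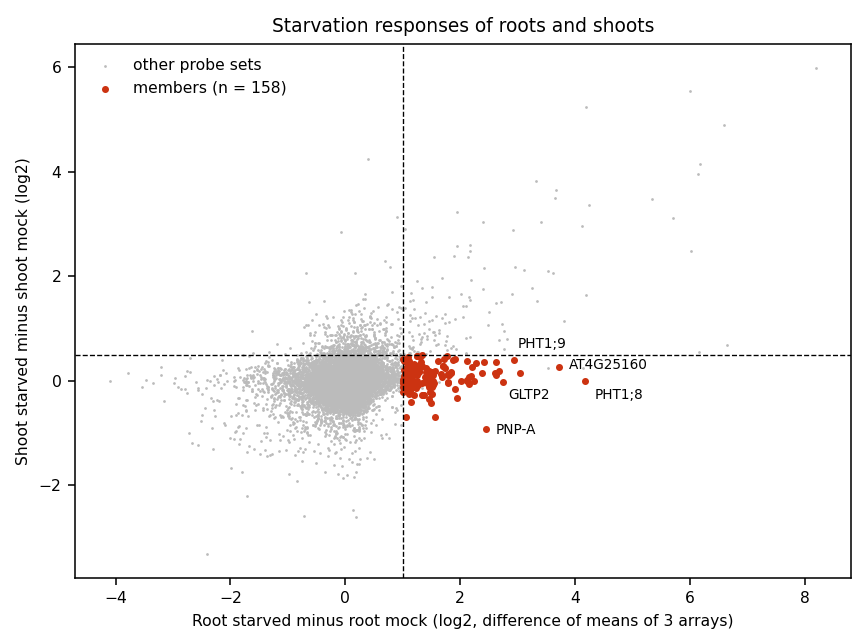
Difference between starved and mock plants in roots (horizontal axis) and in shoots (vertical axis), both as log2 differences of means of 3 arrays, for all probe sets except controls. The 158 members (red) lie right of the root limit of 1 and below the shoot limit of 0.5 (dashed lines), with PHT1;8 farthest to the right at 4.16; grey points in that region were removed by symbol or had overlapping root arrays.

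The limits cut through a continuous range of values. The members nearest to the root limit were EXT13, AT5G26080, AT3G43960 and AT3G53560, each at 1.0. Just outside lay AT2G21100 and AT2G24390, each at 1.0 when rounded and under 1, and AT4G01140 at 0.99. At the shoot limit, AT2G46940 (0.49) and the probe sets 257641_s_at and 266419_at (0.48 each) were inside, while AT4G37220, CBL1 and BGLU44 (each 0.52) were outside. The smallest gaps between the starved and mock root arrays were 0.10 for 256243_at and AT2G39040 and 0.14 for 250669_at. AT5G18910, with an overlap of 0.02, was the nearest probe set to fail for that reason.

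The starved root arrays were not alike. Starved array 3 was the lowest of the 3 for 105 members, array 1 for 36 and array 2 for 17. The median member lay 1.42, 1.47 and 1.12 above its mock root mean in starved arrays 1, 2 and 3. Without starved array 3 the same limits gave 195 members, of which 150 were among the 158.

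Phosphate transporters gave 3 members with 1 gene, among them PHT1;8 with the largest root difference of all members. PHT1;8, a member of the PHT1 family of proton-coupled phosphate carriers, had log2 values of 4.15, 4.53 and 4.1 in replete roots, 8.09, 8.56 and 8.13 in starved roots and 4.41, 4.05 and 3.83 in mock roots. Its 9 shoot arrays lay between 3.78 and 4.22 in all conditions. The starved root arrays thus stood clear of all others, and 2 of the 3 replete root arrays lay within the range of the mock roots, with array 2 above it. PHT1;9, the closest relative of PHT1;8, had 5.49, 4.62 and 4.81 in replete roots, 8.13, 8.09 and 8.10 in starved roots and 5.11, 5.01 and 5.39 in mock roots, a starved minus mock difference of 2.94. In shoots its starved arrays (3.98, 3.89 and 4.11) also lay above its mock arrays (3.78, 3.43 and 3.55), by 0.41, close to the limit of the rule. PHT1;3, a phosphate uptake transporter, had 4.02, 4.39 and 3.98 in replete roots, 6.43, 6.54 and 5.46 in starved roots and 4.56, 4.32 and 4.21 in mock roots. Starved array 3 was the low one, and the rule itself required it to exceed every mock array. The probe set 249152_s_at, which the study's table assigns to both PHT1;1, a main root phosphate carrier, and AT5G43370, had 10.77, 10.65 and 10.23 in replete roots, 11.97, 11.94 and 11.52 in starved roots and 10.71, 10.74 and 10.60 in mock roots. The 2 genes cannot be told apart there.

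Purple acid phosphatases, which release phosphate from organic esters, provided 4 members. PAP6 had 2.49, 2.64 and 2.61 in replete roots, 4.69, 5.13 and 4.21 in starved roots and 2.57, 2.54 and 2.47 in mock roots, while its shoot arrays lay between 2.35 and 2.80. PAP10, a phosphatase associated with the root surface, differed by 1.45 between starved and mock roots. Its replete roots, at 7.08, 6.78 and 6.62, lay below its mock roots, at 7.41, 7.28 and 7.45, with no overlap. PAP23 and PAP7 differed by 1.16 and 1.07 between starved and mock roots. All 4 fell back to at most 0.25 of the rise in replete roots.

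Enzymes of pyrophosphate, carboxylate and lipid metabolism made up a further 5 members. PPa3, a soluble pyrophosphatase that splits pyrophosphate into phosphate, had 5.55, 5.66 and 5.66 in replete roots, 8.28, 8.60 and 7.74 in starved roots and 6.6, 6.06 and 6.54 in mock roots. Its replete arrays lay below all mock arrays. PPC2, a phosphoenolpyruvate carboxylase that forms oxaloacetate and frees phosphate, differed by 1.73 in roots and 0.24 in shoots. DGD2, a galactolipid synthase that makes digalactosyldiacylglycerol under phosphate shortage, had 7.0, 6.74 and 6.85 in replete roots, 8.15, 8.48 and 8.26 in starved roots and 6.76, 6.77 and 6.89 in mock roots. The glycolipid transfer protein gene GLTP2 had 3.80, 5.82 and 5.83 in replete roots, 7.21, 7.44 and 6.70 in starved roots and 3.70, 5.26 and 4.17 in mock roots. Its mock and replete arrays overlapped, and array 1 was the low one in both groups. KCS5, a condensing enzyme of very-long-chain fatty acid synthesis, differed by 1.14.

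Genes of sugar metabolism and transport formed another group of 5. The sucrose phosphate synthases, which make the phosphorylated precursor of sucrose, had the largest differences in it. ATSPS4F had 2.49, 2.95 and 2.83 in replete roots, 5.82, 6.23 and 5.12 in starved roots and 3.36, 2.79 and 3.15 in mock roots. SPS2F had 4.85, 4.54 and 4.21 in replete roots, 7.71, 7.99 and 7.27 in starved roots and 5.01, 4.96 and 5.18 in mock roots. In both genes each starved root array lay above all other root arrays. HCEF1, a chloroplast fructose-1,6-bisphosphatase, differed by 1.41, the sugar transporter gene SWEET14 by 1.26 and the alpha-galactosidase gene AGAL1 by 1.22. All 5 had a shoot difference between 0.16 and 0.36, and all 5 fell back to at most 0.25 of the rise in replete roots.

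Root hair genes contributed 7 members with similar differences, 1.02 to 1.5 between starved and mock roots. All 7 were named through the study's own table of root responders, so root hair genes that did not respond could seldom be named here. RHD6, a bHLH transcription factor that starts root hair formation, had 5.37, 5.17 and 5.5 in replete roots, 6.95, 7.04 and 6.76 in starved roots and 5.23, 5.24 and 5.78 in mock roots. The others were the root hair specific genes RHS16 (1.46), RHS18 (1.34) and RHS12 (1.12), XTH14 (1.23), an enzyme that cuts and rejoins xyloglucan, PRP3 (1.14), a proline-rich wall protein, and MRH6 (1.02). All 7 fell back to at most 0.25 of their rise in replete roots, and their replete minus mock differences lay between -0.30 and 0.27. Through the platform annotation alone, 2 of 18 listed root hair genes were measured, the expansin genes EXPA7 and EXPA18. They differed by 0.42 and 0.67 between starved and mock roots and were not members. The part of root hair number in these values was not tested.

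Other cell wall genes among the members were EXT13, an extensin, PELPK2, FLA6, a fasciclin-like arabinogalactan protein, XTH26, PGSIP3, a glucuronosyltransferase of xylan, and PNP-A, an expansin-like natriuretic peptide. The 2 probe sets of PGSIP3 differed by 1.25 and 1.12 between starved and mock roots, and both replete root means lay below the mock means. The starved minus mock differences of PNP-A were 2.44 in roots and -0.91 in shoots. In roots it had 3.87, 2.58 and 2.96 in replete plants, 5.96, 6.29 and 4.45 in starved plants and 3.25, 2.85 and 3.28 in mock plants. In shoots it had 9.79, 10.04 and 10.14 in replete plants, 9.14, 9.30 and 9.79 in starved plants and 10.91, 9.75 and 10.31 in mock plants, so the starved and mock shoot arrays overlapped.

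Among other transport proteins, CHX17, a cation/proton exchanger of endomembranes, had 5.64, 4.37 and 4.35 in replete roots, 7.58, 7.92 and 7.90 in starved roots and 4.82, 4.80 and 5.74 in mock roots. Its shoot arrays varied widely within groups, from 4.54 to 6.04 in starved plants and from 4.71 to 5.26 in mock plants. GDU2, a glutamine dumper that promotes amino acid export, differed by 1.66 in roots. The tonoplast water channel gene TIP1;3 differed by 1.47, AT1G22550, which the study describes as a peptide transporter, by 1.32 and the endoplasmic reticulum calcium pump gene ECA2 by 1.16. The starved shoot arrays of AT1G22550 also lay above its mock shoot arrays, by 0.35 on average.

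Signal proteins formed a mixed group of 8. AT4G25160, which the study describes as a receptor-like cytoplasmic kinase with a part similar to bacterial universal stress proteins, had the second largest difference of all members. It had 3.82, 4.02 and 4.25 in replete roots, 8.05, 8.36 and 7.61 in starved roots and 4.06, 4.11 and 4.69 in mock roots, against 2.26 to 3.07 over the shoot arrays. RALFL27, which encodes a small peptide of the RALF family, differed by 1.70, and LOG7, an enzyme that activates cytokinins, by 1.25. The calcium-linked proteins CIPK9, ANNAT4 (annexin 4), AGD11 (also annotated as calmodulin-like 3) and CPK19 differed by 1.34, 1.1, 1.1 and 1.06. SNRK2.7, a kinase of the family that includes abscisic acid signalling kinases, differed by 1.09. For LOG7, SNRK2.7 and RALFL27 the starved shoot arrays also lay above the mock shoot arrays, by 0.47, 0.33 and 0.28 on average.

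Transcription factors and DNA-binding proteins numbered 7. AT3G25790, which the study describes as a putative MYB factor, had 6.81, 7.58 and 7.78 in replete roots, 8.31, 8.76 and 8.07 in starved roots and 6.58, 6.69 and 6.49 in mock roots. Its replete arrays lay between the other 2 groups and overlapped neither. AT2G33710, an AP2/ERF factor, had close values within groups, 3.11, 2.63 and 2.68 in replete roots, 4.48, 4.49 and 4.48 in starved roots and 2.91, 2.79 and 3.15 in mock roots. The remaining 5 were the auxin response factor gene ARF9 (1.52), the bHLH genes NAI1 (1.5), needed for endoplasmic reticulum bodies, and ATMYC1 (1.04), the telomere-repeat binding gene TBP1 (1.45), and NF-YA2 (1.29), a subunit of the CCAAT-binding complex. The starved shoot arrays of NF-YA2 also lay above its mock shoot arrays, by 0.45 on average.

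Glutathione transferases, which couple glutathione to reactive compounds, provided 3 members. GSTU14 had 6.49, 6.85 and 6.91 in replete roots, 9.12, 8.96 and 8.77 in starved roots and 6.55, 7.01 and 6.17 in mock roots. GSTU20 and GSTU26 differed by 1.04 and 1.02. FMO GS-OX1, which oxidises the side chain of glucosinolates, differed by 1.15 and SERAT2;2, a serine acetyltransferase of cysteine synthesis, by 1.04. The isoprenoid enzyme genes SPS2 (solanesyl diphosphate synthase 2), AT4G20210 (terpene synthase 8) and cPT5 (a cis-prenyltransferase) differed by 1.51, 1.05 and 1.04.

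**Figure D2:**
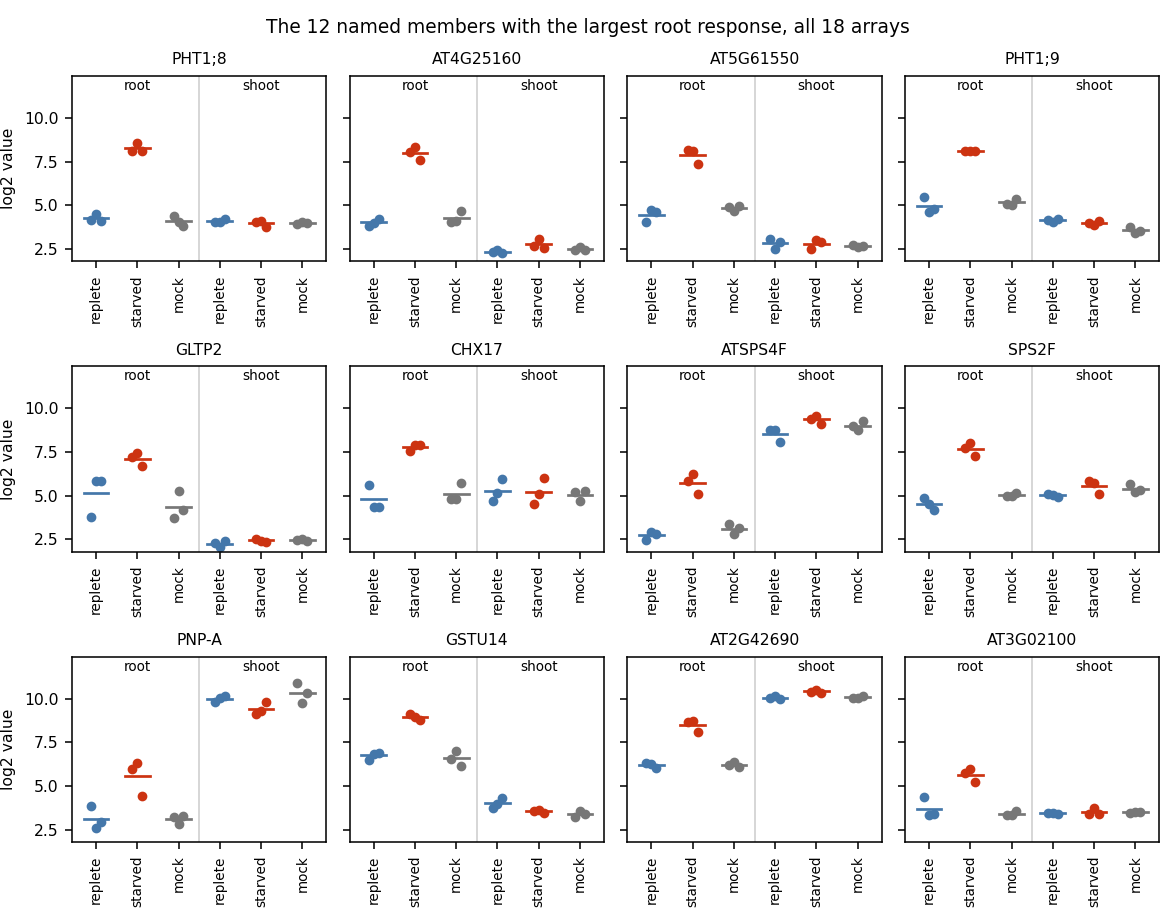
Log2 values on all 18 arrays (points) and group means (lines, n = 3) for the 12 members with 1 gene and the largest difference between starved and mock roots, with replete, starved and mock plants from left to right within each organ. The starved root arrays lie above all other root arrays in each panel, while ATSPS4F, PNP-A and AT2G42690 are higher in shoots than in roots in all conditions.

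Several strongly changed members had no described role in the tables used. AT5G61550 had 4.04, 4.74 and 4.6 in replete roots, 8.17, 8.14 and 7.36 in starved roots and 4.91, 4.67 and 4.97 in mock roots. AT2G42690 and AT3G02100 differed by 2.27 and 2.24. The probe set 248519_at, which matched several genes, differed by 2.61 and had 9.21, 7.70 and 8.33 in replete roots, 10.54, 10.76 and 10.85 in starved roots and 7.44, 7.92 and 8.95 in mock roots. Only 1 pair of members, AT5G02170 and AT5G02180 on chromosome 5, consisted of neighbouring protein-coding genes in the RefSeq annotation (assembly TAIR10.1). They differed by 1.78 and 1.42 between starved and mock roots.

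**Figure D3:**
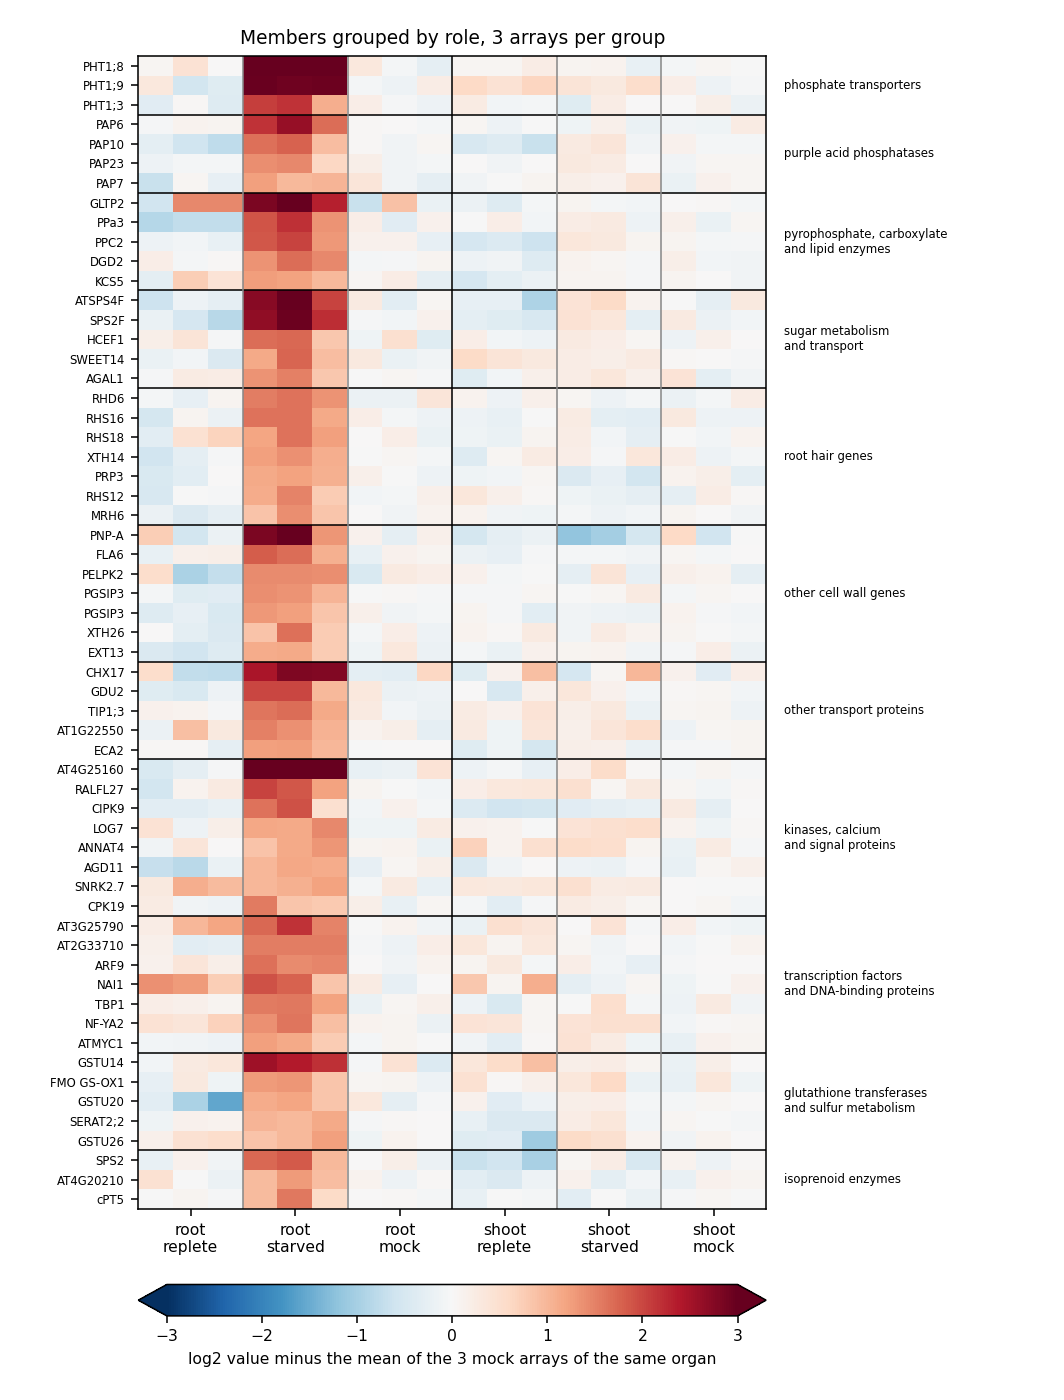
Log2 value of each array minus the mean of the 3 mock arrays of the same organ (colour, cut off at -3 and 3) for members grouped by role, with the replete, starved and mock arrays of roots and then of shoots from left to right. The starved root columns are red in every row and the shoot columns pale, with PNP-A blue in starved shoots; the root replete columns stay red for NAI1 and SNRK2.7, among others.

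The wider phosphate pathway was described through gene lists drawn from annotation. The lists of phosphate transporters, phosphate signalling, acid phosphatases with ribonucleases, and membrane lipid remodelling hold 73 genes, of which 9 were members. However, 8 of those 9 were named through the study's own table of root responders, so their number cannot be set against the genes measured. Through the platform annotation alone, 8 of the 73 genes had 9 probe sets. In starved against mock roots, 4 of the 9 were higher and 0 lower, against 1.55% and 0.706% of all probe sets at an adjusted p of at most 0.001 (limma, Benjamini-Hochberg). At an unadjusted p under 0.05, also 0 of the 9 were lower, against 10.1% of all. The median difference in roots was 0.49 over the 9 probe sets and 0.03 over all. These are the arrays of the rule, so the counts are a description from which nothing is read. The 4 were AT3G25790, which is a member and was thus chosen by this difference, AT1G68670 (1.54 ± 0.10, SE) from the signalling list, AT1G13750 (1.68 ± 0.18) from the phosphatase list and AT1G63010 (0.77 ± 0.13) from the transporter list. AT1G68670 and AT1G13750 also differed in shoots, by 0.93 and 1.2, and so were not members. AT1G63010 differed by 0.11 in shoots, and its root difference was under 1.

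In replete roots most member means lay near those of mock roots, a description because the starved and mock root arrays entered the rule. The replete mean lay below the starved mean for 156 of the 158 members, a count given without a share of all probe sets. All 3 replete root arrays lay below all 3 starved root arrays for 146 members, against 21.8% of all probe sets. In the limma fit, 115 members were lower in replete than in starved roots at an adjusted p of at most 0.001, against 2.78% of all probe sets. This contrast shares the starved arrays with the rule, so nothing is read from these counts. The median difference between replete and mock roots was -0.02 over the members, as against -0.01 over all probe sets.

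The share of the rise that was kept is the replete minus mock difference divided by the starved minus mock difference in roots. It was 0.25 or less for 132 members, between 0.25 and 0.75 for 20 and 0.75 or more for 6. The median share was -0.01, and 81 members had a share below 0, that is a replete mean below the mock mean. The replete and mock differences share the mock arrays with the rule, so these shares describe the members and were not tested.

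**Figure D4:**
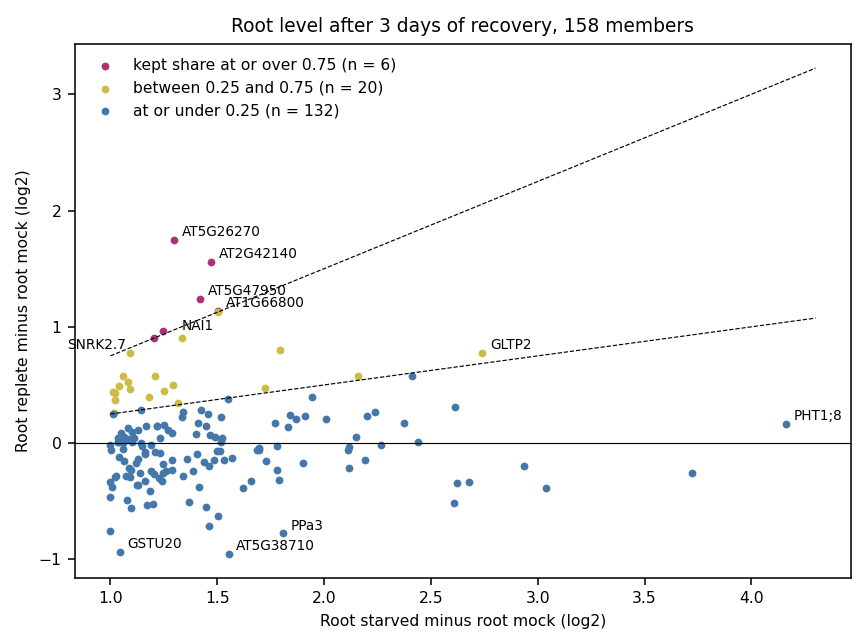
Root replete minus root mock (vertical axis) against root starved minus root mock (horizontal axis), both log2 differences of means of 3 arrays, for the 158 members; dashed lines mark kept shares of 0.25 and 0.75. Most points lie near 0 on the vertical axis, 6 lie at or above the upper line, and AT5G38710, GSTU20 and PPa3 lie lowest.

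The 6 members that stayed high were AT5G26270, AT2G42140, AT5G47950, AT1G66800 and the probe sets 262826_at and 261297_at, for which the tables used give no role. AT5G26270 had 7.21, 7.69 and 7.59 in replete roots, 7.26, 7.14 and 6.73 in starved roots and 5.89, 6.09 and 5.26 in mock roots. Its replete mean lay above its starved mean by 0.45, and it was the 1 member called higher in replete than in mock roots by limma, against 0.0219% of all probe sets, a description because the mock arrays entered the rule. That call was lost without replete array 2 or 3 or mock array 1 or 3, where 0 members were called, and without replete array 1 the count was 4. AT2G42140 had 5.39, 6.03 and 6.75 in replete roots, 5.32, 6.01 and 6.59 in starved roots and 4.32, 4.54 and 4.64 in mock roots, the first 2 groups lying together. AT5G47950 had 4.81, 7.28 and 7.03 in replete roots, 6.93, 6.72 and 6.01 in starved roots and 5.16, 5.55 and 4.69 in mock roots. Replete array 1 lay within its mock range, unlike the other two. AT1G66800 had 4.63, 5.74 and 5.91 in replete roots, 5.83, 6.08 and 5.47 in starved roots and 4.18, 4.18 and 4.51 in mock roots, again with array 1 the low one.

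NAI1, whose share of 0.749 fell just short of the limit, had 8.39, 8.31 and 7.77 in replete roots, 8.94, 8.80 and 7.86 in starved roots and 7.28, 6.78 and 7.03 in mock roots. SNRK2.7 kept a share of 0.71 and AT2G46940 one of 0.675. AT3G25790 kept 0.45, NF-YA2 0.38 and GSTU26 0.36. Of the 7 transcription factors and DNA-binding proteins, 4 fell back to 0.25 or less.

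At the other end, 23 members had all 3 replete root arrays below all 3 mock root arrays, against 11.1% of all probe sets. The limma fit called 0 members lower in replete than in mock roots at an adjusted p of at most 0.001, against 0.0438% of all probe sets. At an unadjusted p under 0.05, 21 members were lower, against 8.31% of all. The mock arrays took part in the choice of members, so nothing is read from these counts. AT5G38710 had the lowest replete minus mock difference, -0.95, with 4.67, 4.26 and 3.77 in replete roots, 6.66, 6.62 and 6.93 in starved roots and 5.0, 5.06 and 5.49 in mock roots. GSTU20 followed at -0.94, with 7.46, 6.84 and 6.22 in replete roots, 8.89, 8.96 and 8.62 in starved roots and 8.09, 7.50 and 7.75 in mock roots. Among members with 1 gene, the next were PPa3 (-0.78), AT5G26080 (-0.75), AT3G49960 (-0.63), AGD11 (-0.56), PAP10 (-0.55) and AT1G14220 (-0.54).

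The replete arrays took no part in the choice of members, so each member's replete roots and replete shoots could be compared with a test. The shares of members and of all probe sets are descriptions from which nothing is read, because the rule bears on them. A probe set near background in shoots easily meets the shoot limit. For 77 members all shoot arrays lay under 6 and the starved root mean was 6 or more. The fit also took its spread from all 6 groups, including the arrays of the rule. In replete plants, 93 members (58.9%) were higher in roots than in shoots at an adjusted p of at most 0.001 (limma, Benjamini-Hochberg), against 26.9% of all probe sets. A further 25 members (15.8%) were lower in roots than in shoots, against 19.1% of all. The remaining 40 were called in neither direction, and 31 of these differed by less than 0.5. The median difference was 1.29 over the members and 0.05 over all probe sets. Replete arrays of the organs did not overlap, in either direction, for 135 of the 158 members, against 67.5% of all probe sets. In a fit of the replete arrays alone, 82 members were called higher in roots and 23 lower. The shares of all probe sets in that fit are not given here, so nothing is read from these 2 counts.

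The members higher in roots differed by 0.55 to 6.88 with a median of 2.41, and 29 members differed by 3 or more. The shared probe set of PHT1;1 and AT5G43370, 249152_s_at, led with 6.88 ± 0.15 (SE, adjusted p = 1.6e-16). Among members with 1 gene, the largest differences were those of AT5G15180 (6.26 ± 0.09, SE, adjusted p = 4.0e-18), XTH14 (6.17 ± 0.16, adjusted p = 1.2e-15), PAP7 (5.77 ± 0.17, adjusted p = 7.1e-15), AT1G52820 (5.51 ± 0.37, adjusted p = 4.3e-10), AT1G64590 (5.27 ± 0.21, adjusted p = 2.7e-13) and AT4G20210 (4.97 ± 0.16, adjusted p = 1.9e-14). XTH14 had 8.60, 8.89 and 9.13 in replete roots and 2.35, 2.80 and 2.97 in replete shoots. PAP7 had 8.41, 9.14 and 8.83 in replete roots and 2.93, 3.02 and 3.13 in replete shoots. The organs were thus far apart in both genes, and all 7 root hair members were higher in replete roots, by 1.65 to 6.17. 

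The PHT1 members with 1 gene differed less between the replete organs than the shared probe set 249152_s_at, which had the largest difference among members higher in roots. PHT1;8 differed by 0.15 ± 0.16 (SE, adjusted p = 0.43) between replete roots and replete shoots, with replete shoot arrays of 4.06, 4.06 and 4.22. PHT1;9 was higher in replete roots by 0.83 ± 0.17 (adjusted p = 0.00034), a call lost with centring on reference genes, at 0.555, and in the fit of the 6 replete arrays alone. It was lost too without replete shoot array 1, at 0.85, or array 2, at 0.77. PHT1;3 was higher in replete roots by 1.44 ± 0.23 (adjusted p = 2.6e-05). PAP6 and PAP23 had values near the bottom of the scale in both organs, with differences of 0.06 ± 0.17 and -0.11 ± 0.16, both without a call.

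**Figure D5:**
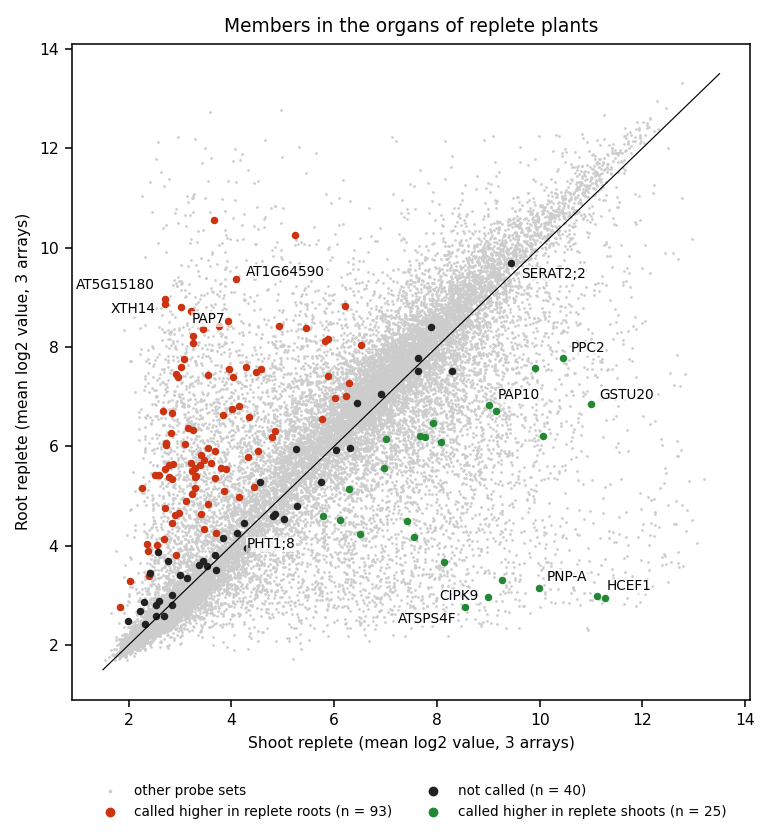
Mean log2 value in replete roots (vertical axis) against replete shoots (horizontal axis), 3 arrays each, for the members and all other probe sets; the line marks equal values. The 93 members called higher in replete roots lie above the line, the 25 called higher in replete shoots below it, and the 40 without a call near it.

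Members called higher in replete shoots numbered 25 (15.8%, against 19.1% of all probe sets), with differences from -0.87 to -8.34. They included HCEF1 (-8.13 ± 0.22, adjusted p = 2.4e-15), PNP-A (-6.85 ± 0.40, adjusted p = 6.5e-11), CIPK9 (-6.02 ± 0.24, adjusted p = 3.3e-13), ATSPS4F (-5.78 ± 0.25, adjusted p = 1.0e-12), FMO GS-OX1 (-4.47 ± 0.21, adjusted p = 2.5e-12) and GSTU20 (-4.16 ± 0.23, adjusted p = 2.3e-11). Replete shoots had 11.33, 11.05 and 10.98 for HCEF1, against 2.99, 3.20 and 2.77 in replete roots. Starved roots reached 4.50, 4.54 and 3.63 for this gene, against 2.68, 3.30 and 2.46 in mock roots, and the difference between starved roots and starved shoots was -7.09. Of the 25, 23 stayed below the shoot mean in starved plants too. The exceptions were AT5G38710 and ANNAT4, whose starved root means lay 0.83 and 0.19 above the starved shoot means.

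The values of the 3 green tissue markers measured, of 6 listed, are given beside these shoot-high members. Between starved and mock roots RCA differed by -0.24, LHCB4.1 by -0.31 and PRK by 0.38, and limma called none of the 3. The root rises of HCEF1, CIPK9 and ATSPS4F were 1.41, 1.34 and 2.62. In starved roots PRK averaged 3.41, against 3.03 in mock roots. The part of shoot RNA in these rises was not tested.

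The same comparison in mock plants uses arrays of the rule and is a description. There, 89 members (56.3%) were called higher in roots than in shoots, against 24.4% of all probe sets. For 15 members the root mean lay above the shoot mean in starved plants and below it in mock plants. The rule sets the root rise above the shoot rise and so allows a turn in this direction alone, and nothing is read from the count. In mock plants 9 of the 15 differed by at most 0.2 between the organs, so only 6 had a larger mock difference, among them SPS2F, AT5G38710 and ANNAT4. For SPS2F the starved means were 7.66 in roots and 5.57 in shoots, and the mock means 5.05 in roots and 5.41 in shoots. The replete organs, at 4.53 in roots and 5.03 in shoots, were not called different (-0.50 ± 0.20, adjusted p = 0.041). PAP6, TIP1;3, PAP23, SAT32 and SERAT2;2 were among the 9 with a small mock difference. SERAT2;2, for example, averaged 10.69 in starved roots and 9.96 in starved shoots, and 9.65 in mock roots and 9.81 in mock shoots.

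In the comparison of starved with mock shoots, the limma fit called 0 members lower in starved than in mock shoots, against 0.0132% of all probe sets, and at an unadjusted p under 0.05 it gave 5, against 10% of all. The rule used this contrast, bounding it from above, so nothing is read from these counts. The lowest differences were those of PNP-A (-0.91), the probe set 260957_at (-0.69) and AT5G38710 (-0.69). AT5G38710 had 6.26, 6.49 and 6.76 in replete shoots, 5.37, 5.79 and 6.56 in starved shoots and 6.77, 6.34 and 6.67 in mock shoots, so 1 of its starved shoot arrays lay within the mock range. PRP3 and AT2G39040 followed among members with 1 gene, at -0.41 and -0.32. Replete minus mock differences in shoots lay between -1.0 and 0.85, with a median of -0.01.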

How the data were processed

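RNA was measured on 18 ATH1 arrays. The deposited table holds log2 values. According to the methods, the authors corrected the background, equalised the distributions of all arrays by quantile normalization and summarised each probe set by median polish in R; the labels name the package affy, with no version stated. These values were used without further scaling. One model with 6 group means was fitted to all 22810 probe sets (limma 3.58.1, R 4.3.3; 12 residual degrees of freedom, 16.5 after moderation), with a two-sided Benjamini-Hochberg adjustment over all probe sets in each contrast and a call at 0.001 or less. Script and test were tested on simulated data. The members and lists were chosen with earlier results of these data known, and the role groups were put together from annotation after the members were seen.

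Genes came from the platform annotation for 85 members and, where it gave none, from the identifiers in the study's table of root responders for 51. The 2 tables gave the same locus for 651 of 658 probe sets named in both. Symbols were updated through RefSeq (assembly TAIR10.1) and matched without regard to case when families were left out; 6 of the 12 removed were named by the study's table. Named genes were those with the largest root, recovery, organ and shoot differences, up to 4 per class of function, list members, and those nearest to a limit or to each other. Other genes in the role groups were chosen after their values were seen. Sequences and a planned promoter search were not used here. The number of arrays, 3 a group, limits the precision. Alternatives were other limits, scalings, filters, adjustments and array weights, a replicate block, the compared arrays alone, and each array left out.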

Additional observations from a re-analysis of the deposited data

How the results depend on the processing

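The number of members varied with the limits of the rule, the scaling, the filter and the arrays used. It was 286 with a root limit of 0.8 and 53 with one of 1.5, and leaving out single arrays gave 140 to 195. Centring on spike-in control probe sets gave 112 members, not all of them among the 158. Centring on reference genes gave 145, and quantile normalization within each organ gave 158. With only probe sets whose highest group mean was at least 6, the number was 123. The count higher in replete roots than in replete shoots was 57 with a Bonferroni adjustment and 85 to 90 without single arrays; the count lower was 24 to 25 without single arrays. The count lower in replete than in starved roots was 40 with Bonferroni, 27 in the fit of those 2 groups alone and 90 to 118 without single arrays. The count higher in replete than in mock roots was 9 at an adjusted p of 0.05, 0 with Bonferroni, 5 with array weights, 0 in the fit of the 2 groups alone and 0 to 4 without single arrays. The count lower was 5 at 0.05 and 1 with array weights. The count higher in mock roots than in mock shoots was 53 with Bonferroni and 82 to 86 without single arrays. The count of phosphate-list probe sets higher in starved roots was 1 with Bonferroni and 3 to 4 without single arrays. The shares of all probe sets under these alternatives are not given here. The counts therefore show how the calls depend on the settings, and nothing is read from them about the members. The fits with fewer arrays have fewer residual degrees of freedom, and the causes of the other changes were not tested. The lower counts in starved against mock shoots and of the phosphate lists were 0 under every alternative run.

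With the replicate block, 93 members were higher and 25 lower in replete roots than in replete shoots, and 118 were lower in replete than in starved roots, so no count moved by over 1.5 times. Same-numbered replete root and replete shoot arrays deviated together with correlations of 0.04, 0.08 and 0.08 over all probe sets. Over all 15 pairs of groups the correlations ran from -0.11 to 0.45, and all 3 were over 0.1 in 1 pair, mock and replete shoots. The study speaks of replicate experiments and the labels tie no number to a shared experiment, so pairing was not established and the block was kept as an alternative. Reference gene centring moved the median replete root minus replete shoot difference of all probe sets by -0.28, and the members' median was then 1.01 against -0.23 over all. Spike-in centring moved the median root starved minus mock difference by -0.17, the shoot one by -0.10 and the replete minus mock one in roots by -0.11. Of 847 alternative values of the organ difference for 57 named genes, 30 lost a call, 4 gained one and 0 reversed a call. An exclusion of symbols through the platform table alone and all alternatives for the phosphate lists were chosen after seeing the data; the exclusion gave 164 members. Values without a call that changed sign and stayed without one were counted as unchanged.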
